A study of Rattus norvegicus with 8 samples.

Results

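The genes described here are targets of the transcription factor p53 and regulators of apoptosis in rat thyroid follicular cells exposed to excess iodide. They were chosen as 34 gene symbols, and each gene was read from its brightest probe set, that is, the probe set with the highest mean signal over all 8 arrays. Of the 34 genes, 30 had a probe set of their own among 14217 genes named on the array, and 29 of these were bright enough to be tested among 10047 genes. Bik, a pro-death member of the BCL2 family that carries only a BH3 domain, had signals of 4.20 to 43.9 on the 8 arrays and was too dim to be tested. Bax was represented only on a probe set annotated to several genes, so no value was taken for it. Pmaip1, Btg2 and Tnfrsf10b were not analysed here. Several probe sets existed for 14 of the 30 genes.

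The cells were the SB5 sub-clone of FRTL-5, a rat thyroid line that needs thyrotropin (TSH) to grow and work, and all were kept in 5 mU/ml bovine TSH. They stably expressed the human TSH receptor, either L629F, a constitutively activating substitution, or wild type (WT), and they were given 1 mM sodium iodide or, as the salt control, 1 mM sodium chloride. The 4 groups were L629F with iodide, L629F with chloride, WT with iodide and WT with chloride, each measured on 2 single-colour Affymetrix arrays. The series addressed the transcript response to iodide in cells that model autonomous thyroid tissue, which functions without TSH control. The labels name no separate clones for a receptor, so a difference between receptors cannot be told apart from a difference between these transfected lines. They give neither the duration of exposure nor the promoter that drives the receptor. They also do not say that the 2 arrays of a group came from separate cultures. The p-values therefore describe only how far these samples spread, and that spread may be technical.

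The p53 protein is stabilised when DNA is damaged or cells are stressed, and it then switches on genes that halt the cell cycle, repair DNA or start cell death. In the mitochondrial route of apoptosis, BH3-only proteins release BAX and BAK from restraint by BCL2 relatives, the outer membrane opens, and proteins that escape it activate caspases on the APAF1 scaffold. Inhibitor-of-apoptosis proteins (IAPs) and FLIP hold caspases back, and death receptors such as FAS engage them from the cell surface. In the thyroid, excess iodide is organified with hydrogen peroxide as the oxidant and is known to be toxic to follicular cells at high concentration.

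The arrays matched their label as thyroid follicular cells. All 9 follicular markers with a probe set were above the limit for dim probe sets, and thyroglobulin (Tg) alone had signals of 10750 to 16580. Of the markers with a probe set, 2 of 6 for leucocytes, 2 of 6 for fibroblasts, 1 of 4 for endothelium and 0 of 3 for C cells were above that limit. Those above it were Cd3e (73.9 to 144), Cd14 (98.15 to 186), Col1a1 (88.0 to 186), Pdgfra (27.75 to 226) and Vwf (56.9 to 281). The dimmest of the leucocyte, fibroblast and C cell lists, Itgam (4.30 to 10.4), Dcn (2.59 to 12.8) and Chga (2.59 to 6.20), were near 0. The summed endothelial signal was 149 to 189 on L629F iodide arrays, 271 to 353 on L629F chloride arrays, 229 to 437 on WT iodide arrays and 304 to 374 on WT chloride arrays, and its part in the results was not tested. Median signals over all probe sets were 138 to 147 on L629F arrays and 118 to 127 on WT arrays, although the trimmed mean was the same on all of them. Centring each array on that median therefore lowers every comparison of L629F with WT: it moved the median of all genes by -0.20 on the log2 scale in the average over salts, and by 0.03 in the iodide comparison. The 3′ to 5′ ratios of GAPDH and actin are higher in degraded RNA and are given with SD (n = 4 each). For GAPDH it was 2.32 ± 0.716 on iodide and 1.62 ± 0.397 on chloride arrays (two-sided p = 0.171 by an exact permutation test). For actin it was 6.31 ± 2.255 and 5.27 ± 2.36 (two-sided p = 0.543 by an exact permutation test). By receptor, actin was 6.56 ± 0.925 on L629F and 5.02 ± 2.98 on WT arrays (two-sided p = 0.371 by an exact permutation test). Both ratios were lowest on WT chloride replicate 1 (1.22 and 2.23) and highest on WT iodide replicate 2 (3.13 and 9.15). The part of RNA quality in the iodide and receptor results was not tested.

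Few of the 29 genes changed with iodide. Averaged over both lines, 2 of them passed the test: Ccng1 (cyclin G1) rose and Gadd45a (a DNA-damage-inducible stress sensor) fell, where 1.6% of all 10047 genes passed, 0.518% higher and 1.08% lower. The test was limma's moderated test on log2(signal + 35.3) with p-values adjusted by Benjamini-Hochberg across the 10047 genes and called under 0.05, and every difference given is on that log2 scale with its standard error. The other 27 genes did not pass, and all of the 29 but Gadd45a and Sesn1 had an average difference within 0.5 in either direction. Their differences were positive in 8 and negative in 21, with a median of -0.06 against 0.01 over all tested genes. Within WT cells none of the 29 passed, where 0.458% of all genes did, and within L629F cells none passed, where 0.0896% did. By unadjusted p under 0.05, 4 of the 29 differed in WT and 3 in L629F, where 12.5% and 8.18% of all genes did.

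Few of the 29 genes differed between the receptors. Averaged over both salts, 2 of 29 were lower in L629F than in WT cells, Gadd45a and Casp2 (caspase-2), and none was higher, where 3.14% of all genes passed, 2.04% higher and 1.09% lower. In chloride the same 2 genes were lower, where 0.478% of all genes passed. In iodide Gadd45a was the 1 gene lower, where 0.488% passed. The median difference over the 29 genes was 0.04 in the average over salts, against -0.00 over all genes, with 18 positive and 11 negative. That split was 5 positive and 24 negative with the arrays centred on their median. The iodide and receptor comparisons share arrays (the WT chloride arrays are the base of both the iodide comparison in WT and the receptor comparison in chloride), so their values are given side by side.

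**Figure D1:**
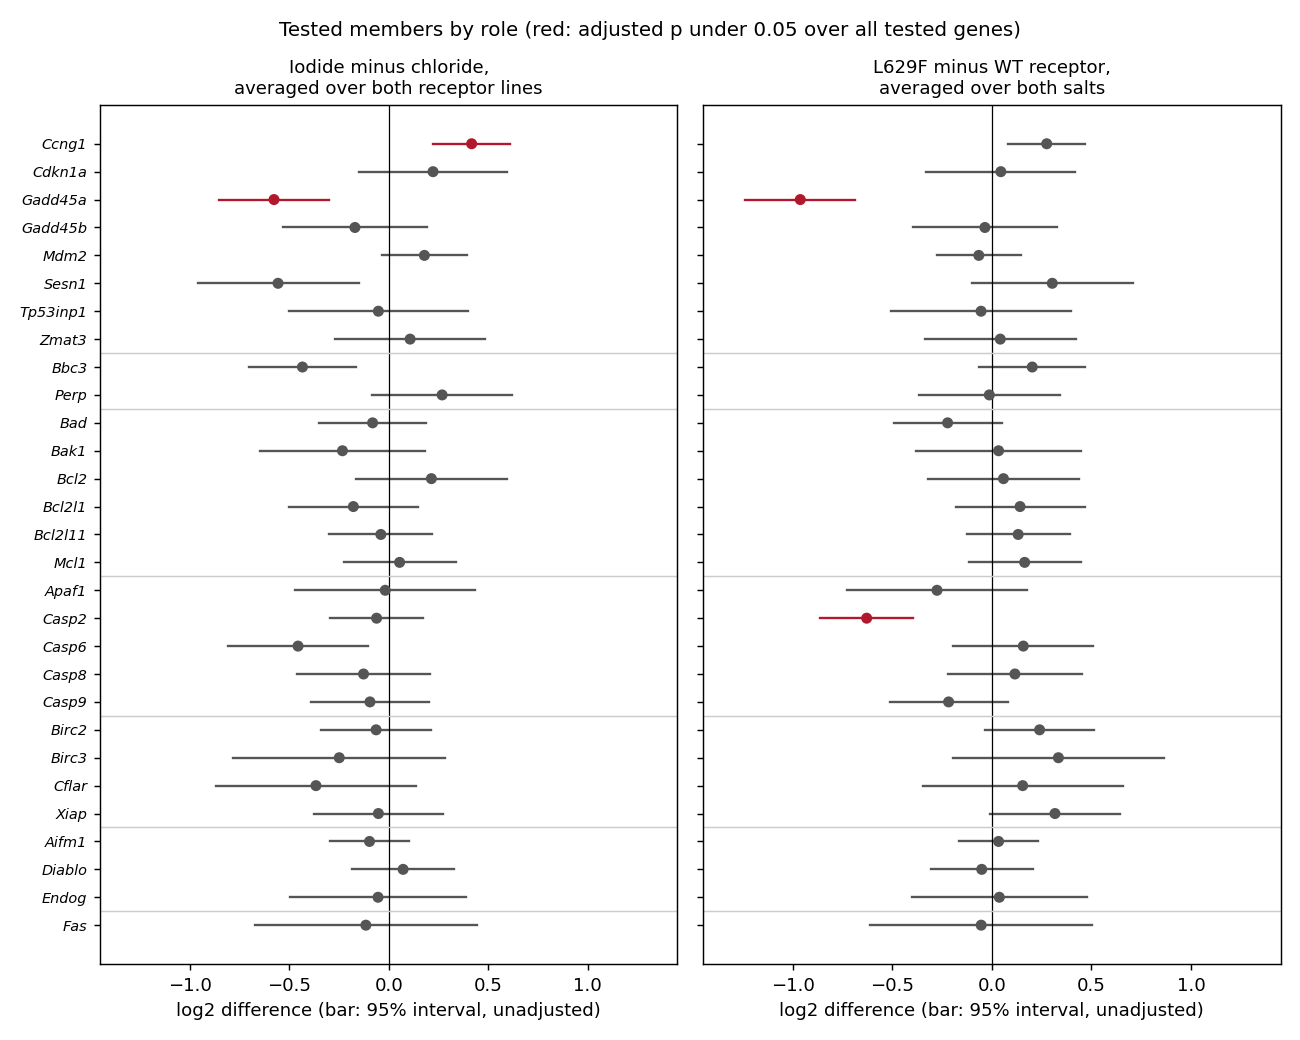
Log2 differences of the 29 tested genes, ordered by role, for iodide against chloride averaged over lines and for L629F against WT averaged over salts; points are the fitted differences, bars their unadjusted 95% intervals, and red points passed at an adjusted p under 0.05. Ccng1 (0.42) and Gadd45a (-0.58) passed with iodide, while Sesn1 (-0.56), Casp6 (-0.46) and Bbc3 (-0.43) did not. With the receptor, Gadd45a (-0.96) and Casp2 (-0.63) passed.

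Gadd45a binds PCNA and kinases of the stress-activated MAPK cascade and promotes arrest and DNA repair. Its signal was 995 and 928 in L629F iodide cells, 1602.7 and 1199.9 in L629F chloride cells, 2073 and 1603.4 in WT iodide cells, and 3103 and 2635 in WT chloride cells. All 4 L629F arrays lay below all 4 WT arrays, with 1 L629F chloride array and 1 WT iodide array almost level, and within each line both iodide arrays lay below both chloride arrays. Over both lines together the 4 iodide arrays overlapped the 4 chloride arrays. The L629F difference was -0.96 ± 0.13 averaged over salts (adjusted p = 0.00176), -1.02 ± 0.18 in chloride (adjusted p = 0.0291) and -0.90 ± 0.18 in iodide (adjusted p = 0.0479). It passed in the average over salts without any 1 of the 8 arrays (adjusted p up to 0.0208) and was -1.17 with the arrays centred. The value in iodide did not pass without any 1 of the 8 arrays, and that in chloride did not pass without any 1 of the 4 chloride arrays (adjusted p up to 0.314).

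With iodide Gadd45a fell by 0.58 ± 0.13 averaged over lines (adjusted p = 0.0417), and the difference was -0.51 ± 0.18 in L629F cells (adjusted p = 0.48) and -0.64 ± 0.18 in WT cells (adjusted p = 0.167). The difference between these responses was 0.13 ± 0.26 (adjusted p = 0.998). The call on the average remained only without WT iodide replicate 1 or L629F chloride replicate 2, and the adjusted p was 0.1005 to 0.2255 without each of the other 6 arrays, the highest without WT chloride replicate 1. With the arrays centred it was 0.0600.

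Ccng1 encodes cyclin G1, a p53 target that recruits a phosphatase to MDM2 and takes part in negative feedback on p53. Its signal was 7055 and 6361 in L629F iodide cells, 5493 and 5239 in L629F chloride cells, 6309 and 5552 in WT iodide cells, and 3981 and 4290.2 in WT chloride cells. All 4 iodide arrays lay above all 4 chloride arrays, and the WT chloride arrays were the lowest 2 of the 8. The iodide difference was 0.42 ± 0.09 averaged over lines (adjusted p = 0.0373), 0.32 ± 0.13 in L629F cells (adjusted p = 0.548) and 0.51 ± 0.13 in WT cells (adjusted p = 0.117). The call on the average remained only without WT iodide replicate 2, and the adjusted p was 0.0582 to 0.2014 without each of the other 7 arrays, the highest without WT chloride replicate 1. The receptor difference was 0.28 ± 0.09 averaged over salts (adjusted p = 0.116), and 0.06 with the arrays centred.

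The sequences before the start sites of Gadd45a, Ccng1 and Casp2, the 3 genes that passed a test, are shown with matches to 3 short sequences. Each is the 250 bases before the gene's annotated start in RefSeq (build GRCr8), on the gene's strand, and capitals mark matches on either strand to the p53 half-site, to CCAAT or to TGACG (the core of the cyclic AMP response element, through which TSH signalling reaches genes). Gadd45a lies at chr4:97486800-97487049 on the minus strand, Ccng1 at chr10:25684877-25685126 on the minus strand and Casp2 at chr4:72116107-72116356 on the plus strand.
Gadd45a: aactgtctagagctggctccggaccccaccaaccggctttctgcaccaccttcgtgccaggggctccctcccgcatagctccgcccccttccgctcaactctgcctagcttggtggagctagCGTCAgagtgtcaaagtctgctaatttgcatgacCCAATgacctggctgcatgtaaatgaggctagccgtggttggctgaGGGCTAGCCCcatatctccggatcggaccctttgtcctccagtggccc
Ccng1: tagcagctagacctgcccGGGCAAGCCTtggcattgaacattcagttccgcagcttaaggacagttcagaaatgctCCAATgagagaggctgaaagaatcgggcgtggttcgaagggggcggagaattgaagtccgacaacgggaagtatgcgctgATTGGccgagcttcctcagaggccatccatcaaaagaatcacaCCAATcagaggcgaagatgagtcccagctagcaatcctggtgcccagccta
Casp2: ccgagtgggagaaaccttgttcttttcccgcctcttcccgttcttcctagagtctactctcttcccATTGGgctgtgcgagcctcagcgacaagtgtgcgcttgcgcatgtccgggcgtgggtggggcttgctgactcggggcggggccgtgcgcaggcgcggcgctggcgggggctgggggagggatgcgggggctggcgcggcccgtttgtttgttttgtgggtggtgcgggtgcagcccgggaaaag
The Gadd45a window held 1 p53 half-site, 1 CCAAT match and 1 TGACG match, with the half-site beginning 48 bases before the start. The Ccng1 window held 1 p53 half-site, 232 bases before the start, and 3 CCAAT matches. The Casp2 window held 1 CCAAT match and neither of the other letters. Across 27457 promoters of the same length 6.56% held a p53 half-site, 34.3% CCAAT and 19% TGACG. Of the 30 genes with a probe set, 23 had a promoter in RefSeq's table, and the half-site was found in 5 of them (Ccng1, Cdkn1a, Cflar, Gadd45a and Sesn1), CCAAT in 11 and TGACG in 7. No match overlapped another. A match describes letters and not a bound site. Only single half-sites within these 250 bases were searched, so p53 sites elsewhere in a gene would be missed.

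**Figure D2:**
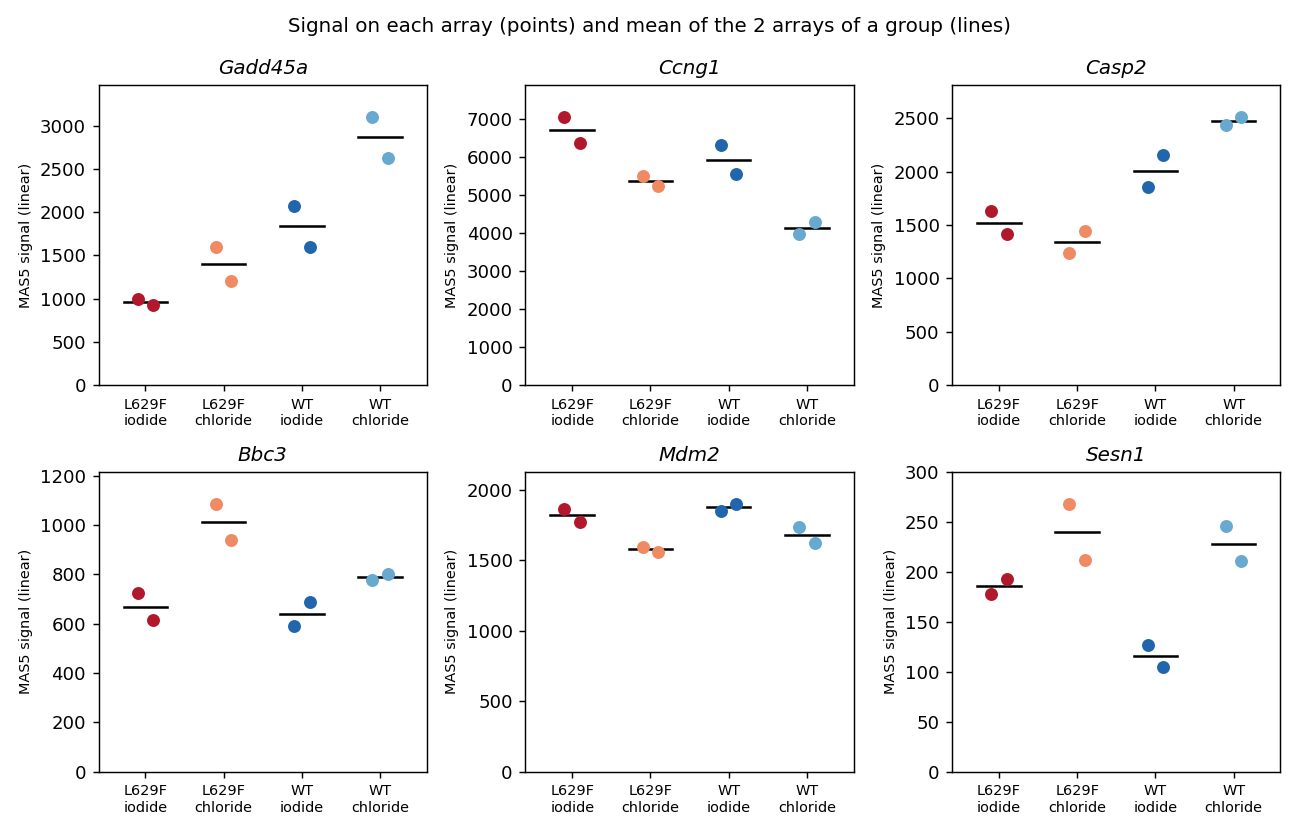
Signal (linear MAS5 scale) on each of the 8 arrays for 6 of the genes, 1 panel per gene with its own axis from 0; points are arrays, short lines are group means, and groups run from L629F iodide on the left to WT chloride on the right. Gadd45a is lower on the L629F arrays (928 to 1602.7) than on the WT arrays (1603.4 to 3103), and Ccng1 is higher on every iodide array (5552 to 7055) than on every chloride array (3981 to 5493).

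Among the other p53 targets of arrest and repair, none passed a test in any comparison. Cdkn1a encodes p21, the cyclin-dependent kinase inhibitor through which p53 stops the cell cycle. Its signal was 3136 and 4169.9 in L629F iodide cells, 2697 and 3872 in L629F chloride cells, 2733 and 4896 in WT iodide cells, and 2731 and 3290.4 in WT chloride cells. Replicate 2 was above replicate 1 in all 4 groups, and the groups overlapped. The iodide difference was 0.22 ± 0.17 (adjusted p = 0.596) and the receptor difference 0.05 ± 0.17 (adjusted p = 0.909). On its other probe set Cdkn1a had signals of 626 and 346 in L629F iodide cells, 771 and 280 in L629F chloride cells, 285 and 351 in WT iodide cells, and 431 and 343 in WT chloride cells, so the order of the replicates was not the same there.

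Mdm2 is the ubiquitin ligase that p53 induces and that degrades p53. It had signals of 1866 and 1773 in L629F iodide cells, 1594 and 1562 in L629F chloride cells, 1851 and 1902 in WT iodide cells, and 1736 and 1623 in WT chloride cells. All 4 iodide arrays lay above all 4 chloride arrays, by little: the difference was 0.18 ± 0.10 (adjusted p = 0.432). Its 2 dimmer probe sets did not share that order, and on one of them the difference was -0.29. Sesn1 (sestrin 1) links p53 to restraint of growth signalling through mTORC1. Its signal was 178 and 193 in L629F iodide cells, 268 and 213 in L629F chloride cells, 127 and 105 in WT iodide cells, and 246 and 211 in WT chloride cells. All 4 iodide arrays lay below all 4 chloride arrays, and the WT iodide arrays were the lowest of all, with a difference of -0.56 ± 0.19 averaged over lines (adjusted p = 0.167) and -0.80 ± 0.27 in WT cells (adjusted p = 0.232).

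The remaining members of this group were Gadd45b, a relative of Gadd45a, Zmat3, an RNA-binding zinc finger protein, and Tp53inp1, a stress-induced partner of p53. Averaged over lines, the iodide differences were -0.17 ± 0.17 for Gadd45b, 0.11 ± 0.18 for Zmat3 and -0.05 ± 0.21 for Tp53inp1. For Tp53inp1 the difference was 0.32 ± 0.30 in L629F cells and -0.43 ± 0.30 in WT cells, with an adjusted p of 0.993 for the contrast between lines. Over the 8 tested genes of arrest and repair, 4 had a positive and 4 a negative iodide difference, with a median of 0.03.

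Of the p53 targets that promote death, Bbc3 and Perp could be measured. Bbc3 encodes PUMA, a BH3-only protein that p53 induces. Its signal was 726 and 614 in L629F iodide cells, 1086 and 940 in L629F chloride cells, 591 and 687 in WT iodide cells, and 778 and 800.3 in WT chloride cells. All 4 iodide arrays lay below all 4 chloride arrays, with a difference of -0.43 ± 0.12 averaged over lines (adjusted p = 0.102), which did not pass. It was -0.57 ± 0.18 in L629F cells (adjusted p = 0.354) and -0.29 ± 0.18 in WT cells (adjusted p = 0.519). Perp, a desmosome protein that takes part in p53-dependent death, had signals of 295 and 364 in L629F iodide cells, 318 and 289.6 in L629F chloride cells, 339 and 417 in WT iodide cells, and 232 and 310.25 in WT chloride cells. Its groups overlapped within L629F and did not within WT, with an average difference of 0.27 ± 0.16 (adjusted p = 0.481). On the dimmer probe set of Perp the iodide arrays were the higher ones in both lines. The signals were 277 and 262 against 227 and 220 in L629F cells, and 180.16 and 256 against 180.09 and 144 in WT cells. Among the p53 targets, Ccng1 and Mdm2 were thus higher on every iodide array than on every chloride array, and Bbc3 and Sesn1 were lower.

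Across all 29 genes, the 4 iodide arrays lay wholly above the 4 chloride arrays for 2 genes (Ccng1 and Mdm2), where 4.57% of all genes did, and wholly below for 3 (Bbc3, Casp6 and Sesn1), where 3% did. The 4 L629F arrays lay wholly below the 4 WT arrays for 2 genes (Casp2 and Gadd45a), where 4.65% of all genes did, and wholly above for none, where 5.64% did. Of these genes, those that did not pass the test remain descriptions of the order of the arrays.

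**Figure D3:**
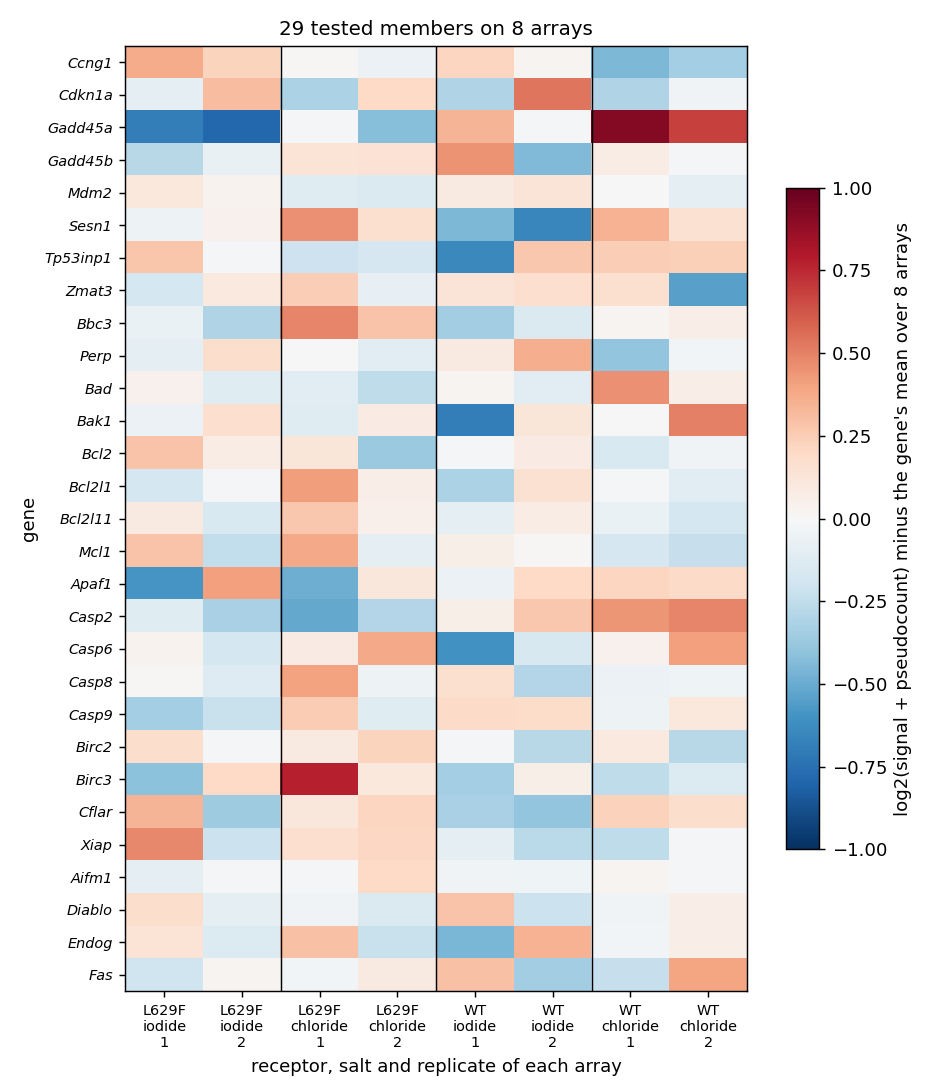
Log2 signal of the 29 genes on each array relative to the gene's mean over the 8 arrays, with genes in rows by role and arrays in columns from L629F iodide to WT chloride; the colour scale is in log2 units. The row of Gadd45a runs from below its mean in L629F iodide cells to above it in WT chloride cells, and the row of Casp2 is below its mean on all 4 L629F arrays.

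No BCL2-family gene passed a test. The 6 tested were Bcl2, Bcl2l1 (BCL-XL) and Mcl1, which protect cells, and Bak1, Bad and Bcl2l11 (BIM), which promote death. For Bcl2l11 the iodide difference was -0.04 ± 0.12 (adjusted p = 0.915) on its brightest probe set, where iodide and chloride arrays overlapped. On a dimmer probe set of Bcl2l11, all 4 iodide arrays (16.6 to 87.8) lay below all 4 chloride arrays (97.3 to 203). Bad, a BH3-only protein controlled by phosphorylation, had signals of 971 and 862 in L629F iodide cells, 869.6 and 784 in L629F chloride cells, 962 and 869 in WT iodide cells, and 1306 and 990.2 in WT chloride cells. Both WT chloride arrays were above both L629F chloride arrays, with a difference of -0.45 ± 0.18 in chloride (adjusted p = 0.305) and 0.00 ± 0.18 in iodide (adjusted p = 0.998). Averaged over salts it was -0.22 ± 0.13 (adjusted p = 0.351), and -0.43 with the arrays centred, where it passed (adjusted p = 0.0369).

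Bak1, which forms the pore in the outer mitochondrial membrane, had signals of 374 and 443 in L629F iodide cells, 357 and 415 in L629F chloride cells, 228 and 427 in WT iodide cells, and 392 and 568 in WT chloride cells. Replicate 2 exceeded replicate 1 in all 4 groups and the groups overlapped in every comparison. The iodide difference was -0.23 ± 0.19 (adjusted p = 0.623). Mcl1, a short-lived protector, had signals of 4508 and 3114 in L629F iodide cells, 4826 and 3459 in L629F chloride cells, 3852 and 3715 in WT iodide cells, and 3286 and 3143 in WT chloride cells. Both WT iodide arrays lay above both WT chloride arrays, but the L629F groups overlapped, and the iodide difference was 0.05 ± 0.13 (adjusted p = 0.885). Among all 6 genes the iodide differences averaged over lines ran from -0.23 to 0.21 and the receptor differences averaged over salts from -0.22 to 0.16, and the receptor range was -0.43 to -0.05 with the arrays centred. Among these averages the 95% interval that reached furthest from 0 was that of Bak1 with iodide, from -0.65 to 0.18.

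Casp2 was the caspase that passed. Caspase-2 is an initiator activated on the PIDDosome, a complex with a p53-induced scaffold. Its signal was 1630 and 1416 in L629F iodide cells, 1236 and 1445 in L629F chloride cells, 1855 and 2152 in WT iodide cells, and 2434 and 2512 in WT chloride cells. All 4 L629F arrays lay below all 4 WT arrays. The L629F difference was -0.63 ± 0.11 averaged over salts (adjusted p = 0.00813), -0.87 ± 0.15 in chloride (adjusted p = 0.0291) and -0.39 ± 0.15 in iodide (adjusted p = 0.336). The average did not pass without WT chloride replicate 2 (adjusted p = 0.0565), and the value in chloride did not pass without any 1 of the 4 chloride arrays (adjusted p up to 0.26). The dimmer probe set of Casp2 gave -0.16 in the average (adjusted p = 0.757) and 0.25 in iodide. Its signals were 167 and 175 in L629F iodide cells, 113 and 125 in L629F chloride cells, 103.5 and 181 in WT iodide cells, and 238 and 156 in WT chloride cells, so the order of the groups was not the same on the 2 probe sets.

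The iodide difference of Casp2 was 0.18 ± 0.15 in L629F cells and -0.30 ± 0.15 in WT cells. The contrast between these, 0.48 ± 0.22, had an unadjusted p of 0.044 and an adjusted p of 0.993. It was the 1 gene of the 29 under an unadjusted 0.05 for that contrast, where 4.16% of all genes were, and 0% of all genes passed the adjusted test.

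Casp6, an executioner caspase, had signals of 409.9 and 350.3 in L629F iodide cells, 425 and 529 in L629F chloride cells, 250.3 and 353 in WT iodide cells, and 413 and 543 in WT chloride cells. All 4 iodide arrays lay below all 4 chloride arrays, the closest pair being 409.9 and 413, with a difference of -0.46 ± 0.16 (adjusted p = 0.189). Casp9, the initiator activated on APAF1, had signals of 399 and 435 in L629F iodide cells, 619 and 469.99 in L629F chloride cells, 591.5 and 589.8 in WT iodide cells, and 496 and 558 in WT chloride cells. Iodide arrays were the lower ones in L629F cells and the higher ones in WT cells, with differences of -0.35 ± 0.19 and 0.16 ± 0.19. On a dimmer probe set of Casp9 the mean was lower with iodide in both lines, 72.0 against 142 in L629F cells and 112 against 158 in WT cells. Apaf1 had an iodide difference of -0.02 ± 0.21 and Casp8, the initiator below death receptors, one of -0.13 ± 0.16. All 5 iodide differences in this group were negative, with a median of -0.09, but that of Apaf1 was 0.01 with the arrays centred or quantile-normalized, and none passed.

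The 4 genes that hold caspases back did not pass in any comparison. Xiap, which binds and blocks caspases directly, had signals of 1254 and 762 in L629F iodide cells, 1004 and 1035 in L629F chloride cells, 834 and 731 in WT iodide cells, and 741 and 881 in WT chloride cells. Both L629F chloride arrays were above both WT chloride arrays and the iodide groups overlapped, with a receptor difference of 0.32 ± 0.15 (adjusted p = 0.265). On the dimmer probe set of Xiap the mean signal was 123 ± 44.6 on L629F arrays and 128 ± 32.6 on WT arrays (SD, n = 4 each). Birc2 (cIAP1), a ubiquitin ligase of the TNF receptor complex, had signals of 1147 and 1001 in L629F iodide cells, 1077 and 1182 in L629F chloride cells, 997 and 826 in WT iodide cells, and 1080.4 and 825 in WT chloride cells. Its L629F iodide arrays were above its WT iodide arrays, while 1 WT chloride array lay between the L629F chloride arrays, and the receptor difference was 0.24 ± 0.13 (adjusted p = 0.324).

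Birc3 (cIAP2), a close relative that NF-kappaB induces, had signals of 90.3 and 156 in L629F iodide cells, 252 and 144 in L629F chloride cells, 96.7 and 139 in WT iodide cells, and 105 and 117 in WT chloride cells. Its highest value was 1 L629F chloride array, and the receptor difference was 0.33 ± 0.25 (adjusted p = 0.482). Cflar (FLIP), a catalytically inactive relative of caspase-8, had 84.3 and 90.2 in WT iodide cells, below 149 and 142 in WT chloride cells, but 163 and 87.1 in L629F iodide cells overlapped 134 and 147 in L629F chloride cells. All 4 receptor differences were positive on the brightest probe sets, with a median of 0.28. With the arrays centred the median was 0.07, with 0.11 for Xiap, 0.03 for Birc2, 0.17 for Birc3 and -0.01 for Cflar, and after quantile normalization that of Cflar was -0.02. All 4 iodide differences were negative under all 3 scalings, with a median of -0.16 and a smallest adjusted p of 0.501.

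None of the 3 proteins that leave mitochondria during apoptosis passed a test. Aifm1 (AIF), an oxidoreductase that moves to the nucleus, had signals of 3365 and 3553 in L629F iodide cells, 3551 and 4144 in L629F chloride cells, 3510.1 and 3494 in WT iodide cells, and 3660 and 3567 in WT chloride cells. Its coefficient of variation over the 8 arrays was 6.46%, and the iodide difference was -0.10 ± 0.09 (adjusted p = 0.68). Diablo (SMAC), which releases caspases from IAPs, had an iodide difference of 0.07 ± 0.12, and Endog, a mitochondrial nuclease, one of -0.05 ± 0.20. Averaged over salts, the receptor differences of the 3 genes ran from -0.05 to 0.04, and from -0.26 to -0.15 with the arrays centred. Of the death receptors only Fas was measured, at 85.9 and 107 in L629F iodide cells, 102 and 113 in L629F chloride cells, 135 and 73.9 in WT iodide cells, and 83.4 and 148 in WT chloride cells. The groups overlapped in every comparison, and the iodide difference was -0.11 ± 0.26 (adjusted p = 0.879).

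**Figure D4:**
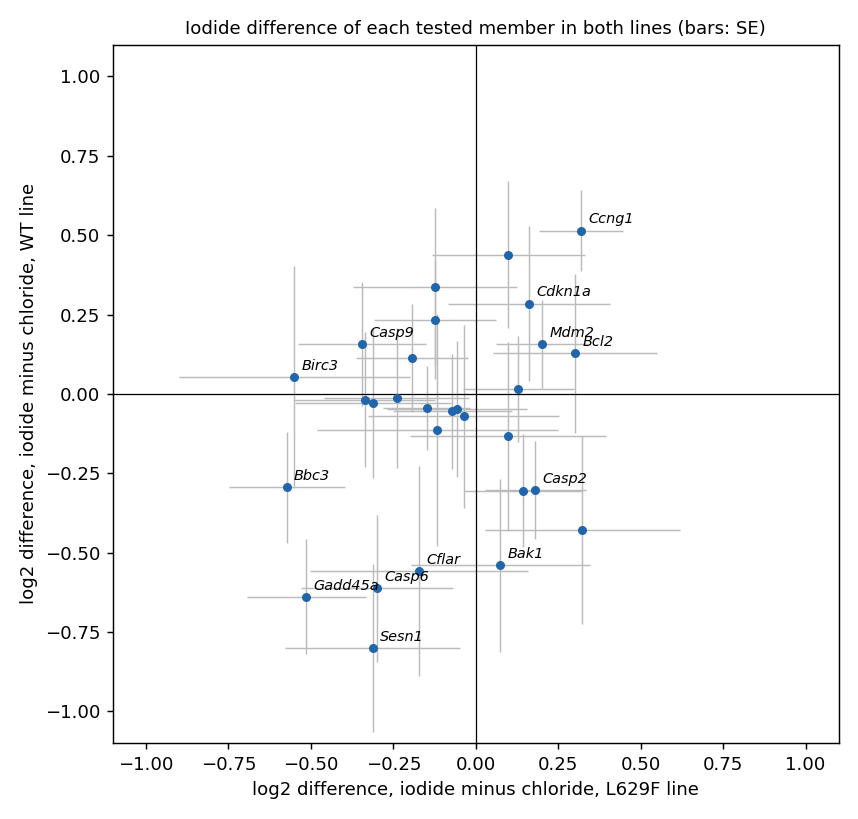
Iodide difference (log2) in L629F cells against that in WT cells for the 29 genes, with bars of 1 standard error and lines at 0. Ccng1 is positive (0.32 and 0.51) and Gadd45a negative (-0.51 and -0.64) in both lines, and Casp2 (0.18 and -0.30) and Casp9 (-0.35 and 0.16) have opposite signs.

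Between the lines, the sign of the iodide difference was the same for 19 of the 29 genes (65.5%), 6 positive and 13 negative in both, where it was the same for 60.6% of all tested genes. None of the 29 genes passed limma's test of the contrast between lines. The contrast ran from -0.60 (Birc3) to 0.75 (Tp53inp1), and its standard errors for these 2 genes were 0.49 and 0.42.

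Of a list of 40 other p53 pathway genes, 27 were tested. The list was chosen with earlier results of these data known, so its counts beside those of all genes are descriptive only. Averaged over lines none rose with iodide, where 0.518% of all genes did, and 2 fell, where 1.08% did. Ddit4, which restrains mTORC1 under stress, had signals of 1395 and 881 in L629F iodide cells, 2534 and 2504 in L629F chloride cells, 852 and 1099.8 in WT iodide cells, and 1381 and 1250.5 in WT chloride cells. Within each line both iodide arrays were the lower ones, and it fell by 0.79 ± 0.14 averaged over lines (adjusted p = 0.0143). The difference was -1.16 ± 0.20 in L629F cells (adjusted p = 0.0551) and -0.43 ± 0.20 in WT cells (adjusted p = 0.413). The contrast between lines was -0.73 ± 0.29 (adjusted p = 0.993). Ccng2 (cyclin G2), a relative of Ccng1, had 691 and 957 in L629F iodide cells, 1583 and 1494 in L629F chloride cells, 1206 and 903 in WT iodide cells, and 1397 and 1237 in WT chloride cells. It fell by 0.61 ± 0.14 averaged over lines (adjusted p = 0.0424), the opposite direction to Ccng1, and the 4 iodide arrays were below the 4 chloride arrays. The difference was -0.89 ± 0.19 in L629F cells (adjusted p = 0.155) and -0.32 ± 0.19 in WT cells (adjusted p = 0.519). The contrast between lines was -0.57 ± 0.27 (adjusted p = 0.993). The call on Ddit4 was lost without any 1 of the 4 chloride arrays (adjusted p up to 0.107), and that on Ccng2 remained only without WT iodide replicate 1 or L629F iodide replicate 2 (adjusted p otherwise up to 0.2164). The median over the 27 genes was 0.05.

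Relative to WT, 2 of the 27 were higher in L629F cells averaged over salts, where 2.04% of all genes were, and none was lower, where 1.09% were. Sesn2 (sestrin 2), a relative of Sesn1, had 2417 and 2021.5 in L629F iodide cells, 2399 and 2485 in L629F chloride cells, 1051 and 1269 in WT iodide cells, and 1394 and 1303 in WT chloride cells. All 4 L629F arrays were above all 4 WT arrays, with a difference of 0.88 ± 0.11 (adjusted p = 0.00125) that passed without any 1 of the 8 arrays and was 0.67 with the arrays centred. Sesn1 differed by 0.30 ± 0.19 (adjusted p = 0.396). Dyrk2, a kinase that phosphorylates p53, had 1052 and 723 in L629F iodide cells, 1217 and 951 in L629F chloride cells, 604 and 519 in WT iodide cells, and 686 and 564 in WT chloride cells. Its difference was 0.68 ± 0.15 (adjusted p = 0.0272), but it was -0.24 on 1 of its other probe sets, and the call remained only without WT iodide replicate 1, L629F chloride replicate 2 or L629F iodide replicate 2 (adjusted p otherwise up to 0.1358).

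From a list of 52 other apoptosis genes, also chosen with earlier results of these data known, 35 were tested. With iodide none rose and 1 fell, where 0.518% and 1.08% of all genes did. The gene that fell was Bnip3, a BH3-like protein of mitochondria and mitophagy. It had signals of 2084 and 2814 in L629F iodide cells, 4773 and 4275 in L629F chloride cells, 2364 and 2175 in WT iodide cells, and 2946 and 2851 in WT chloride cells. All 4 iodide arrays were below all 4 chloride arrays, and it fell by 0.62 ± 0.11 averaged over lines (adjusted p = 0.0132). The difference was -0.89 ± 0.16 in L629F cells (adjusted p = 0.0551) and -0.35 ± 0.16 in WT cells (adjusted p = 0.377). The contrast between lines was -0.54 ± 0.22 (adjusted p = 0.993). The call on the average was lost without either WT chloride array, L629F chloride replicate 1 or L629F iodide replicate 1 (adjusted p up to 0.09899). In L629F cells 1 of the 35 was higher than in WT and none was lower, where 2.04% and 1.09% of all genes were. The higher gene was Pdcd4, an inhibitor of translation initiation. Its signal was 10958 and 10734 in L629F iodide cells, 10815 and 10432 in L629F chloride cells, 6812 and 5943 in WT iodide cells, and 7781 and 7751 in WT chloride cells. All 4 L629F arrays were above all 4 WT arrays, and the difference was 0.61 ± 0.08 (adjusted p = 0.00228). Its 4 other probe sets gave 0.04 to 0.32, none of which passed. The medians over the 35 genes were 0.02 with iodide and -0.03 for the receptor.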

How the data were processed

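Per the labels' protocols, biotin-labelled cRNA from total RNA of 8 FRTL-5 samples was hybridised to Affymetrix rat arrays. The authors deposited linear intensities, a value for each probe set on each array. They come from MAS5, according to the submitters' processing notes, whose version and scaling target are not given in those notes. The mean without the lowest and highest 2% was the same on all arrays (500.0 after rounding). Groups were taken from the labelled receptor and salt. The number of arrays limits the precision.

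Of 31099 probe sets, 20832 had 1 symbol, 436 several and 9831 none in the platform annotation, and 20764 symbols were matched to a current RefSeq entry (GRCr8). The 57 control probe sets and the dimmest 40% (geometric mean signal under 65.3) were left out, and the brightest probe set stood for a gene, which left 10047 genes. Tests were run on log2(signal + 35.3), where 35.3 is percentile 25 of the signals, a scale that understates changes of dim genes. In R 4.3.3, limma 3.58.1 (lmFit, then eBayes with a trend in intensity) fitted 4 group means and 7 contrasts: iodide against chloride in each line, their average and their difference, and L629F against WT in each salt and averaged. The p-values were two-sided and adjusted by Benjamini-Hochberg across the 10047 genes, with calls under 0.05. The fit was also run on simulated data with independent normal noise of the spread that this fit had estimated. That run could not check the noise model itself. Array quality ratios were compared by exact permutation.

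The genes and lists were chosen with earlier results of these data known. Values on every array are given for genes past the threshold, for those whose arrays are described as high or low, and for up to 3 genes of smallest p per role group; list genes are named where they passed. Cdkn1a was singled out after its values had been seen. Alternatives concerned the pseudocount, the filter on dim probe sets, array scaling, which probe set stands for a gene, the trend, a replicate block and leaving out each array.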

Additional observations from a re-analysis of the deposited data

Results flagged for a closer look

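Casp9, the initiator caspase of the apoptosome, had opposite signs of the iodide difference in the 2 lines. Both iodide arrays were below both chloride arrays in L629F cells (399 and 435 against 619 and 469.99), and both were above them in WT cells (591.5 and 589.8 against 496 and 558). The contrast, iodide in L629F minus iodide in WT, was -0.50 ± 0.27 on the log2 scale (limma, unadjusted p = 0.0896, adjusted p = 0.993), so the test of the difference did not pass. On a dimmer probe set of Casp9 the iodide mean was the lower one in both lines, 72.0 against 142 in L629F cells and 112 against 158 in WT cells. How many of all genes had such opposite orders in the 2 lines was not counted.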

How the results depend on the processing

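Gadd45a was below WT in L629F cells, averaged over salts, past the threshold under all 7 other settings (-1.17 to -0.94) and without each array; the other calls on these genes were lost under at least 1 alternative, and the cause was not tested. Among the 29 genes, the number called with iodide averaged over lines was 2, but 0 without the dim-probe filter, 0 without the variance trend, 1 when centred (Ccng1) and 1 after quantile normalization (Gadd45a). For L629F averaged over salts it was 2, but 4 when centred (Gadd45a, Bad, Casp2 and Casp9) and 1 with probe sets averaged per gene (Gadd45a). In chloride it was 2, but 0 without the filter, 0 without the trend and 1 with probe sets averaged. In iodide it was 1, but 0 with a pseudocount of 1, without the filter, without the trend, with quantile normalization and with probe sets averaged. Leaving out 1 array gave 0 to 1 with iodide averaged over lines, 1 to 2 for the receptor averaged over salts, 0 to 2 in chloride, and 0 to 0 in iodide, within either line and for the contrast between lines.

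Over all genes, iodide in WT called 46, but 15 without the filter, 25 when centred and 0 without the trend (0 to 41 without 1 array). Iodide in L629F called 9, but 4, 2 and 0 in these settings and 14 after quantile normalization (0 to 9). Iodide averaged over lines called 161, but 92 without the filter and 18 without the trend (35 to 261). L629F in chloride called 48, but 14 without the filter, 114 when centred and 9 without the trend (3 to 57). L629F in iodide called 49, but 14, 116 and 12 in these settings (5 to 24), and averaged over salts 315, but 205, 2027 and 162 (91 to 329). The contrast between lines called 0 to 0. Centring turned the split of higher and lower calls for the receptor average from 205 and 110 to 155 and 1872, in chloride from 33 and 15 to 18 and 96, in iodide from 36 and 13 to 19 and 97, and for iodide averaged over lines from 52 and 109 to 105 and 94; quantile normalization made the last 34 and 121.

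Centring turned the sign of the receptor average for 13 of the 29 genes, all to negative, of 8 in each salt, of 1 for iodide averaged over lines (Apaf1) and of 4 for iodide in WT; quantile normalization turned 3 receptor averages and 2 iodide averages. None of these turned values passed the test. Among the genes followed through every setting, other sign changes came from the probe set used: Mdm2 with iodide (-0.0064 with probe sets averaged and -0.29 on another probe set), Casp2 in iodide (0.25 on its other probe set), Dyrk2 for the receptor (-0.24 on another probe set) and Pdcd4 in iodide (-0.14 on another). The alternatives for Ddit4, Ccng2, Bnip3, Sesn2, Dyrk2 and Pdcd4 were added after seeing the data.

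The labels do not say that a replicate number marks a shared culture, so the main fit did not take the numbers as pairing. The replicates' differences correlated at 0.0483 to 0.228 between groups, positive in every pair, so these values do not settle whether the numbers mark a shared batch. With the replicate block, iodide in WT called 2 of the 29 genes (Gadd45a and Ccng1), iodide averaged over lines called 3 (also Bbc3, adjusted p = 0.0461) and L629F averaged over salts called 3 (also Ccng1, higher, adjusted p = 0.0495), and over all genes it called 227, iodide in L629F 53, iodide averaged over lines 520, L629F in chloride 243, in iodide 169 and averaged over salts 777. The replicate term itself passed for 139 of 10047 genes (1.38%), among them Cdkn1a (0.51 ± 0.10, replicate 2 minus 1, adjusted p = 0.0158). Replicates also differed in the same direction in all 4 groups for Gadd45a (-0.28 ± 0.10, adjusted p = 0.175), Mcl1, Bak1 and Bad, and this term did not pass for them.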
